A study of Mus musculus with 7 samples.

Results

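The genes described here are 10 genes of fatty acid handling and lipid droplets, Plin2, Pdk4, Fabp3, Fabp4, Fabp5, Cd36, Lpl, Scd2, Acsl4 and Pparg, taken by symbol from a matrix of 27998 genes, and all 10 were present. They were read in the mammary glands of virgin female mice of a mixed FVB, 129 and C57BL/6J background, 3 young mice of 3 to 4 months (Young A, B and C) and 4 aged mice of 13 to 14 months (Aged A, B, C and D), with no other genotype or treatment. The abdominal glands, with lymph nodes removed, were dissociated, and each mouse gave 1 single-cell RNA library from diestrus, so that 13684 cells were assigned by the authors to 13 cell types. The question asked of the genes was in which captured cell types their RNA lay and how it differed between the ages. Adipocytes were not among these types, since the paper states that they were lost with the supernatant when the glands were dissociated.

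Fatty acids reach cells from triglyceride-rich lipoproteins in the blood. Lipoprotein lipase (Lpl) splits the triglyceride at the capillary wall, Cd36 takes the released fatty acids into the cell, and the small binding proteins Fabp3, Fabp4 and Fabp5 carry them in the cytoplasm. Acyl-CoA synthetases such as Acsl4 activate them, stearoyl-CoA desaturases such as Scd2 put in a double bond, and Plin2 coats the droplets in which triglyceride is stored. Pdk4 is a kinase that switches off the pyruvate dehydrogenase complex, so that cells burn fatty acids in place of glucose, and Pparg is the nuclear receptor that turns on many genes of this group. In the mammary gland these steps serve the fat pad, the capillaries and, in alveolar cells, the making of milk fat.

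Each library held 6652599 to 16999625 UMIs (unique molecular identifiers, each standing for 1 captured RNA molecule), with a median of 4758.5 to 7109.5 per cell, and the median mitochondrial share was 3.18% to 3.68% in young and 2.48% to 2.82% in aged mice. Of 13583 distinct cell barcodes, 101 occurred in more than 1 mouse. The captured cells differed in type. Vascular endothelial cells made up 17.7% of the cells of a young mouse on average and 12.5% of those of an aged mouse. AV cells made up 11.7% and 55.9%. Most types carried the markers of their names. Exceptions were the T and B cells, with 1467 CPM of T and B cell markers beside 1738 CPM of NK and 2869 CPM of alveolar luminal markers, and the NK cells, with 9026 CPM of NK beside 9611 CPM of erythrocyte markers. The cells deposited as pericytes held a summed 5433 to 6823 CPM of 12 endothelial markers in young and 2123 to 4966 CPM in aged mice, beside 1311 to 1898 and 1159 to 1535 CPM of 7 pericyte markers. No batch is given in the labels, but cell barcodes were written in a different form for all young than for all aged mice, so a difference in the handling of the files cannot be told apart from age.

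Levels are CPM, UMI counts scaled to a common library total, of each mouse and cell type, given as the mean ± SD over the mice with at least 3 cells of that type. The cell types were drawn by the authors from clusters of the same genes, so their order is a description and was not tested. The means pool both ages, except that Ma macrophages were read in young mice alone. The library method reads 3′ ends, so each transcript gives about the same signal whatever its length, but genes still differ in capture, and the comparisons below are within 1 gene.

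Fabp4 was by far the most abundant of the 10 genes, and among the captured types its level was highest in those of the vessels. Vascular endothelial cells held 21012 ± 12557 CPM (n = 7), pericytes 9177 ± 3663 CPM (n = 7) and Ma macrophages 3516 ± 1545 CPM (n = 3). The 12 endothelial markers averaged a summed 4849 CPM in pericytes and 714 CPM in Ma macrophages, beside 6928 CPM in endothelial cells. For each endothelial marker UMI, young Ma macrophages held 4.95 Fabp4 UMIs, young endothelial cells 4.25 and young pericytes 2.07. Ma macrophages also held 194 CPM of adipocyte markers. The part of RNA from other cells in the levels of the 10 genes in pericytes and Ma macrophages was not tested. All 7 mice had more Fabp4 in endothelial cells than in pericytes, although the ranges over mice (10546 to 39097 and 4995 to 13765 CPM) overlapped. The lowest levels, 113 ± 125 CPM in the hormone-sensing luminal (HS) cells and 125 ± 92.7 CPM in NK cells, could not be separated from each other.

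Cd36 followed the same order at the top, with 1757 ± 1319 CPM in vascular endothelial cells, 991 ± 465 CPM in pericytes and 667 ± 297 CPM in Ma macrophages. It was higher in endothelial cells than in pericytes in 6 of 7 mice. Fabp5 was again highest in vascular endothelial cells at 799 ± 538 CPM and higher there than in pericytes (280.1 ± 152 CPM) in all 7 mice, but it also reached 257 ± 324 CPM in Mb macrophages and 116 ± 47.3 CPM in myoepithelial cells. Pparg was highest in the same compartment, at 128 ± 106 CPM in vascular endothelial cells and 66.6 ± 30.1 CPM in pericytes, a pair that kept this order in 4 of 7 mice.

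Lpl had another pattern. It was highest in fibroblasts at 448 ± 222 CPM, followed by Ma macrophages at 239.8 ± 93.1 CPM, dendritic cells at 165 ± 193 CPM and vascular endothelial cells at 139 ± 154 CPM, and these neighbours overlapped. In young mice alone the means were 633 CPM in fibroblasts, 302 CPM in vascular endothelial cells, 262 CPM in dendritic cells and 239.8 CPM in Ma macrophages, and in aged mice endothelial cells held 16.2 CPM. The epithelial types held 4.05 ± 3.47 CPM (HS cells) to 10.4 ± 6.47 CPM (AV cells), with all their ranges overlapping.

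Plin2 was highest in Mb macrophages (474 ± 222 CPM), Ma macrophages (379 ± 64.5 CPM) and the alveolar luminal (AV) cells (367 ± 211 CPM) with both ages pooled. In young mice the means were 433 CPM in Mb macrophages, 379 CPM in Ma macrophages, 298 CPM in vascular endothelial cells and 159 CPM in AV cells, and in aged mice 523 CPM in AV cells and 504 CPM in Mb macrophages. Pdk4 was highest in AV cells over the pooled ages, at 111 ± 104 CPM with a range from 8.68 to 281 CPM, against 22.9 ± 18.4 CPM in myoepithelial cells. In young mice the mean of Pdk4 was 13.7 CPM in AV and 32.5 CPM in myoepithelial cells, and in aged mice 185 and 15.7 CPM.

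The remaining genes were low throughout. Scd2 reached 29.6 ± 11.5 CPM in fibroblasts and 13.6 ± 5.75 CPM in HS cells, against 2.06 ± 1.72 CPM in AV cells. Acsl4 was highest in myoepithelial cells at 49.2 ± 32.8 CPM and in the HS-AV cells at 43.3 ± 33.6 CPM, which could not be told apart. Fabp3, the binding protein of heart and muscle, averaged at most 5.42 ± 6.51 CPM in any type and was at 0 in every mouse with at least 3 cells in 5 of the 13 types. It passed the filter on low counts in no type, so that 9 of the 10 genes could be tested for age in at least 1 type.

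**Figure D1:**
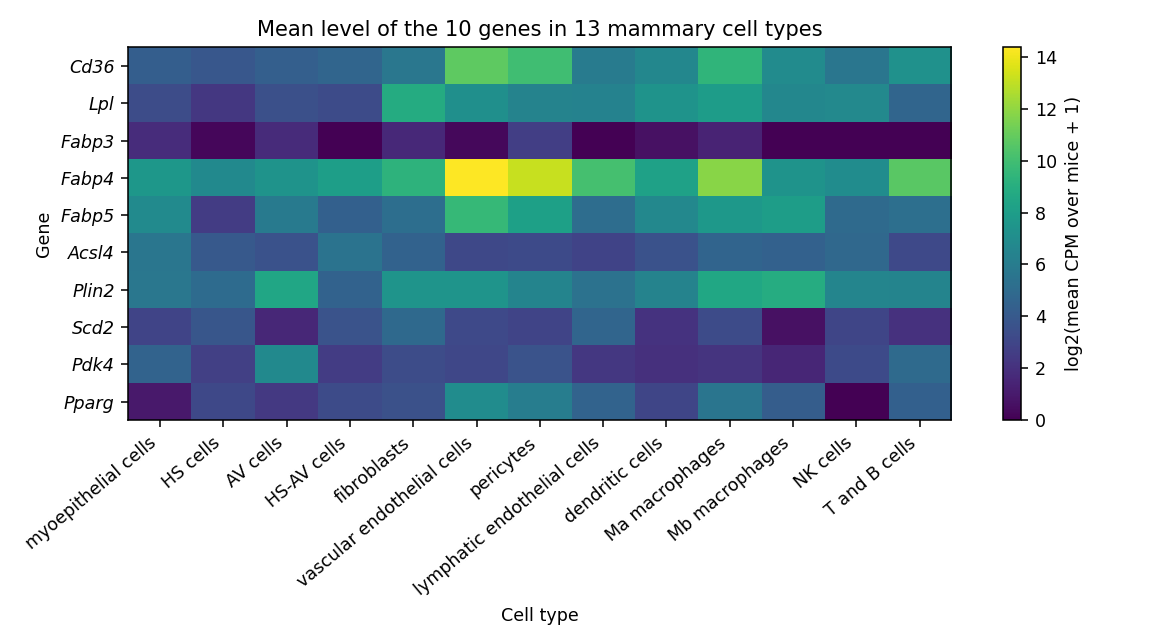
Mean level of each of the 10 genes (rows) in each of the 13 cell types (columns), as colour on the scale log2(mean CPM over mice + 1). Fabp4, Cd36, Fabp5 and Pparg are brightest in vascular endothelial cells, Lpl in fibroblasts, Pdk4 in AV cells (both ages pooled) and Acsl4 in myoepithelial cells, and Fabp3 is dark in every type.

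Counted over all captured cells of a mouse, which leave out adipocytes, the place of the RNA depended on both level and cell numbers. Vascular endothelial cells held 80.5% of the captured Fabp4 UMIs of a young mouse (71.4% to 90.0%) and 90.5% of those of an aged mouse (86.5% to 94.0%). Most captured Plin2 UMIs lay elsewhere in aged than in young mice. Endothelial cells held 36.5% of its UMIs in young mice (10.0% to 62.6%) and 2.31% in aged mice (1.74% to 2.74%). AV cells held 15.5% (8.75% to 20.1%) and 92.6% (89.9% to 95.8%). For Pdk4 the AV share was 32.1% (18.2% to 49.0%) in young and 96.2% (93.8% to 98.3%) in aged mice.

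The genes lie on 7 chromosomes in the GRCm38 (mm10) assembly with GENCODE vM21 annotation. Fabp5 (chr3:10012548-10016607, plus strand) and Fabp4 (chr3:10204088-10208576, minus strand) lie 187 kb apart. Plin2 is at chr4:86648386-86670060, Fabp3 at chr4:130308595-130315463, Cd36 at chr5:17781690-17888801, Pdk4 at chr6:5483351-5496309, Pparg at chr6:115360951-115490399, Lpl at chr8:68880491-68907448, Scd2 at chr19:44293674-44306864 and Acsl4 at chrX:142317993-142390535.

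Promoter windows of 300 bases from RefSeq on GRCm38.p6, ending downstream of the annotated start, were at hand for 6 of the 10 genes, in 8 windows. Because Pparg and its partner receptors bind pairs of the site AGGTCA, called the core site here, the windows were searched on both strands for these letters. A core site was found in 4 of the 8 windows, and 16.3% of all 32851 promoter windows hold it. Those with the site were windows of Cd36, Plin2 and Pparg, while the windows of Pdk4, Fabp3 and Acsl4 and the last of Pparg held none. The direct repeat of the core site with any 1 base between its copies was in 0 of the 8 windows and in 0.0396% of all windows. Windows of Cd36, Plin2, Pparg and Pdk4 are shown, 5′ to 3′ on the strand of the gene, with the core site or its reverse complement in capitals. Cd36, Plin2 and Pparg fell in endothelial cells, and Plin2 and Pdk4 rose in AV cells. The window of Cd36 is chr5:17835847-17836146 on the minus strand, that of Plin2 chr4:86670010-86670309 on the minus strand, that of Pparg, the second of its 3, chr6:115362099-115362398 on the plus strand, and that of Pdk4, which has no core site, chr6:5496229-5496528 on the minus strand.
Cd36: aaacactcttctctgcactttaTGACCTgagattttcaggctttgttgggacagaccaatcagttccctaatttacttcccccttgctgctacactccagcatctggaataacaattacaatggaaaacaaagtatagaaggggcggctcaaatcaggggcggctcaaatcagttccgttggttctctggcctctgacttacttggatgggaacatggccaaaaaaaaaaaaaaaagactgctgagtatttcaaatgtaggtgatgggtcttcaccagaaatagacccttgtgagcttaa
Plin2: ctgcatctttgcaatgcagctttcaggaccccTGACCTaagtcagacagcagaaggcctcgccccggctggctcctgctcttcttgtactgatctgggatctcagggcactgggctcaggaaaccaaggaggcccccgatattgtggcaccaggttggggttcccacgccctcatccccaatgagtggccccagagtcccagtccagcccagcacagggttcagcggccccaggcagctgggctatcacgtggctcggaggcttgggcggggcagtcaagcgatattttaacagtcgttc
Pparg: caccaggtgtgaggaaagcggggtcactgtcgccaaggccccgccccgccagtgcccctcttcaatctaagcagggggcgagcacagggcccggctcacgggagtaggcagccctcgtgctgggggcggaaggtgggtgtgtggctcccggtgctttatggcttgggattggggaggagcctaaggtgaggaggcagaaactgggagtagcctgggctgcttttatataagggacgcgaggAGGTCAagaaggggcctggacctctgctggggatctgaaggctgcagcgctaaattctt
Pdk4: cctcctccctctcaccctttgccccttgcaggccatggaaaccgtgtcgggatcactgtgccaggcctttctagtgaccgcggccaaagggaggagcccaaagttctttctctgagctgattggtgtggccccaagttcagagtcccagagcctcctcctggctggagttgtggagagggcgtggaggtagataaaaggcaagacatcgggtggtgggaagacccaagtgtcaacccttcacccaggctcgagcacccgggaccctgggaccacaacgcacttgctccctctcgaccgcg
A match of 6 letters is a description of the window and says nothing about binding in these cells.

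To compare the ages, UMIs were summed per mouse and cell type and fitted over all genes with the edgeR quasi-likelihood test, and a gene was called where its Benjamini-Hochberg adjusted p over all genes tested was under 0.05 and its change at least 1.5-fold. Levels in the age comparisons are CPM scaled by TMM factors, which correct for a few abundant genes taking more of a library. Changes are log2 fold changes, aged minus young, with an SE. This SE was worked back from the test, as the absolute change divided by the square root of its F statistic, and was not estimated by the fit itself. In vascular endothelial cells 6 of the 9 genes tested were called lower in aged mice and 0 higher. Of all 7864 genes tested 12.0% were called lower and 14.7% higher, and 36.8% had no overlap between the ages. Scaled by library totals alone, an alternative chosen after seeing the data, the median change of all genes went from -0.05 to -0.41 and the share of called genes that were higher from 55% to 22.4%, and the same 6 genes were called lower.

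Among the 10 genes, Lpl had the largest fall in these cells. Its level was 283, 278 and 236 CPM in Young A, B and C and 13.3, 18.6, 14.9 and 26.4 CPM in Aged A, B, C and D. Every aged mouse was far below every young mouse, and Lpl fell by 3.82 ± 0.20 on the log2 scale or 14.1-fold (adjusted p = 1.48e-07). An Lpl UMI was seen in 56.5% of young and 5.07% of aged endothelial cells, and in 36.4% and 2.82% after each cell was thinned to 2000 UMIs. For comparison, 1.29% of young and 0.272% of aged HS cells held one after thinning, and median depths were 4614 and 5239 UMIs in endothelial and 6888 and 8527 UMIs in HS cells.

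Pparg, the receptor, was at 219, 225 and 189 CPM in the young and 45.8, 44.6, 57.5 and 51.3 CPM in the aged mice. The groups lay well apart, and Pparg fell by 2.09 ± 0.15 on the log2 scale or 4.25-fold (adjusted p = 1.18e-06). Cd36, the fatty acid transporter, was at 2299.8, 3397 and 2564 CPM in young and 785, 727, 951 and 857 CPM in aged mice. Young B was highest, no aged mouse came near the lowest young mouse, and Cd36 fell by 1.73 ± 0.16 or 3.32-fold (adjusted p = 6.35e-06).

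The cytoplasmic binding proteins fell as well. Fabp4 was at 26578, 34931 and 28995 CPM in young and 12805, 11217, 12114 and 14141 CPM in aged mice. It stayed the leading gene of the group at both ages but fell by 1.26 ± 0.14 or 2.40-fold (adjusted p = 2.33e-05), and its median count per endothelial cell ran from 144 to 174 UMIs over young and from 42.0 to 59.0 over aged mice. Fabp5 was at 1131, 1188 and 1306 CPM in young and 322, 456, 344 and 550.0 CPM in aged mice, again without overlap, and fell by 1.53 ± 0.18 or 2.88-fold (adjusted p = 4.37e-05).

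Plin2, the droplet coat, was at 225, 345 and 219.7 CPM in young and 101, 77.3, 67.4 and 89.8 CPM in aged endothelial cells. Young B stood highest, the other two young mice were alike, all aged mice were lower, and Plin2 fell by 1.66 ± 0.19 or 3.16-fold (adjusted p = 4.20e-05). The 3 genes not called here were low: Pdk4 had a log2 fold change of 0.92 ± 0.55 (adjusted p = 0.229), Scd2 -0.52 ± 0.55 (adjusted p = 0.511) and Acsl4 0.34 ± 0.34 (adjusted p = 0.491), with group means from 5.38 to 10.5 CPM.

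**Figure D2:**
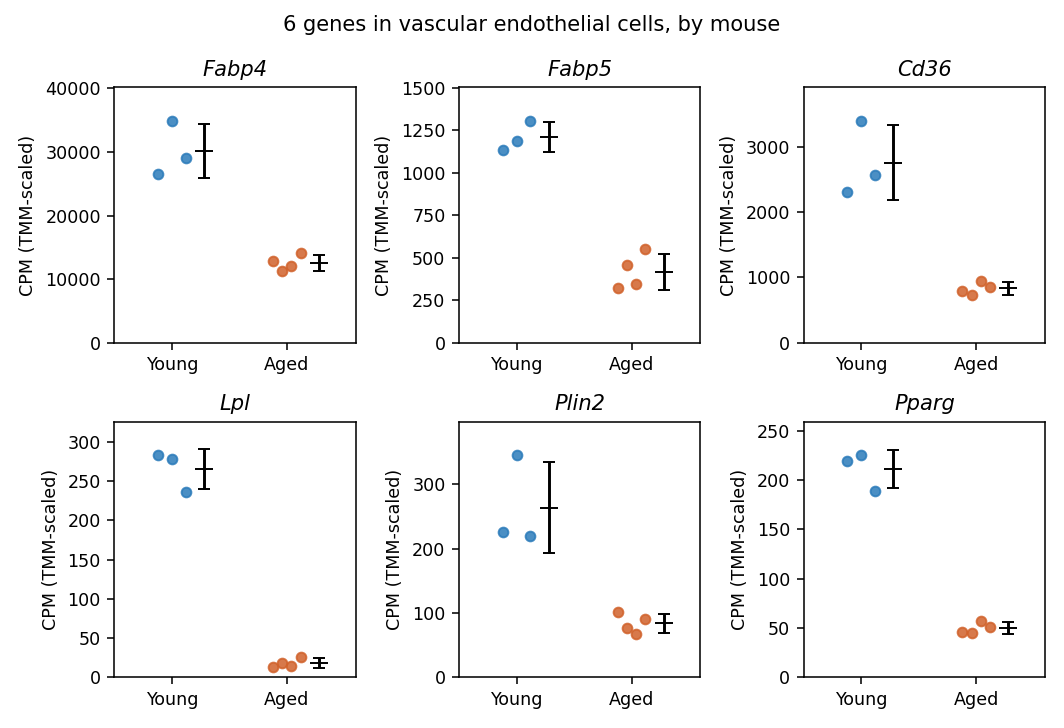
TMM-scaled CPM of 6 genes in vascular endothelial cells, 1 panel per gene with its own axis from 0, 1 point per mouse (3 young, 4 aged), with the mean and SD as bars beside the points. In each panel all aged mice lie below all young mice, from 2.40-fold for Fabp4 to 14.1-fold for Lpl. Of all genes tested in these cells 36.8% had no overlap between the ages.

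Markers of other cells moved with these 6 genes. The 10 adipocyte markers summed to 454 to 879 CPM in young and 3.81 to 20.1 CPM in aged endothelial cells, with Adipoq at 16.0 to 31.6 CPM and at 0 respectively, and 7 to 9 of the 10 markers were at 0 in aged mice. Adipocytes also use Lpl, Cd36, Fabp4, Plin2 and Pparg. Without the cells holding any UMI of an adipocyte marker, an alternative chosen after seeing the data that kept 75.3% of endothelial cells, all 6 genes were still called, with log2 fold changes of -3.44 (Lpl), -1.79 (Pparg), -1.56 (Cd36), -1.48 (Fabp5), -1.23 (Plin2) and -1.04 (Fabp4). The 5 erythrocyte markers summed to 2021 to 5271 CPM in young and 6.98 to 359 CPM in aged mice, and the 12 endothelial markers themselves to 7616 to 8557 and 5669 to 6388 CPM. The part of these in the result was not tested.

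The other genes of these pathways, from lists of uptake, activation, storage, synthesis, oxidation and regulation, were read in the same endothelial fits, and all counts on these lists leave out the 10 genes. Of 10 uptake and binding genes tested 5 were called lower and 0 higher, with a median log2 fold change of -0.53 beside -0.05 over all genes. Among all genes tested in these cells 12.0% were called lower and 14.7% higher. Gpihbp1, which anchors lipoprotein lipase at the capillary wall, was at a mean of 2282 CPM in young and 256 CPM in aged mice, and fell by 3.15 ± 0.21 (adjusted p = 7.12e-07). Angptl4, an inhibitor of lipoprotein lipase, fell by 2.58 ± 0.18 (adjusted p = 9.76e-07). Among 21 genes of droplets and triglyceride turnover 6 were lower and 3 higher, and Mgll, the monoglyceride lipase, fell by 1.98 ± 0.22 (adjusted p = 2.77e-05), while the fat droplet gene Cidec, itself an adipocyte marker, was at a mean of 24.8 CPM in young and at 0 in the 4 aged mice.

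Of 11 synthesis and desaturation genes 5 were lower and 0 higher in endothelial cells, among them Scd1, which fell by 4.31 ± 0.44 (adjusted p = 1.36e-05), and Fasn, fatty acid synthase, which fell by 2.75 ± 0.48 (adjusted p = 8.22e-04). Young and aged means were 48.9 and 2.22 CPM for Scd1 and 21.5 and 3.44 CPM for Fasn. Adipocyte markers also fell in these cells, and the part of adipocyte RNA in the falls of these pathway genes was not tested. Oxidation and pyruvate dehydrogenase genes were lower for 5 of 27 and activation genes for 2 of 7, with 0 higher in either list. Regulators were split, 2 lower and 3 higher of 12. These counts stand beside 12.0% of all genes called lower and 14.7% called higher in endothelial cells.

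In AV cells, the milk-making luminal cells, 5 of 9 genes tested were called, 2 higher and 3 lower. Of all 11012 genes 2.90% were called higher and 3.26% lower, and 22.3% had no overlap between the ages. With library totals alone the median of all genes went from 0.02 to -0.25 and the share of called genes that were higher from 47.1% to 18.1%, with the same 5 genes called in the same directions. Plin2 and Pdk4 rose. The paper already reports both genes as higher in aged AV cells of these same mice, so their 2 calls are not a separate finding. Plin2 was at 133, 164 and 134 CPM in young and 594, 383, 570.3 and 746 CPM in aged mice. All aged mice were above all young mice, with Aged B lowest among them, and the rise was 2.01 ± 0.24 on the log2 scale or 4.02-fold (adjusted p = 0.00175). A Plin2 UMI was found in 51.8% of young and 86.1% of aged AV cells, and in 25.7% and 54.7% after thinning to 2000 UMIs.

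Pdk4 was low in young AV cells, at 12.6, 16.5 and 7.92 CPM, and at 299.8, 143, 145 and 216 CPM in aged mice. The ages were separated by a wide gap, with a rise of 4.14 ± 0.38 or 17.6-fold (adjusted p = 5.58e-04), the largest rise of any of the 10 genes in the 8 types tested for age. After thinning 2.00% of young and 22.2% of aged AV cells held a Pdk4 UMI, against 0.587% and 2.19% of HS cells. AV cells had median depths of 5424.5 and 6877.5 UMIs. Both rises were about as large among the 96.6% of AV cells that held fewer than 3 UMIs of another lineage. They were 1.96 ± 0.24 for Plin2 and 3.96 ± 0.39 for Pdk4. Here and below, this check covered endothelial, fibroblast and macrophage markers outside their own types, and alveolar markers in non-epithelial types. Markers of HS, myoepithelial and lymphoid cells, pericytes and adipocytes were not part of it.

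**Figure D3:**
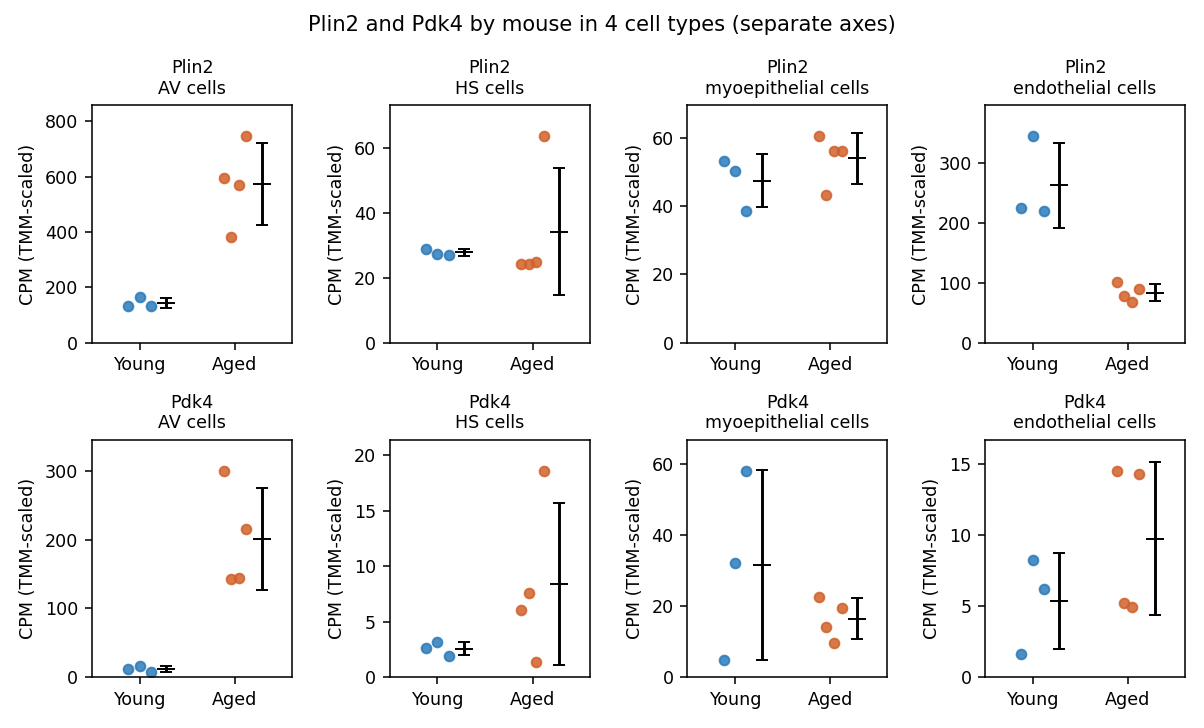
TMM-scaled CPM of Plin2 (upper row) and Pdk4 (lower row) in AV, HS, myoepithelial and vascular endothelial cells, 1 point per mouse (3 young, 4 aged), with the mean and SD beside the points and a separate axis from 0 in each panel. In AV cells every aged mouse is above every young mouse for both genes. In endothelial cells every aged mouse is below for Plin2, and in the other panels the ages overlap. Of all genes tested, the ages did not overlap for 22.3% in AV and 36.8% in endothelial cells.

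Fabp4, Cd36 and Scd2 were called lower in AV cells. Fabp4 was at 273, 483 and 165 CPM in young and 54.6, 23.5, 23.2 and 54.1 CPM in aged mice, and it fell by 2.97 ± 0.42 (adjusted p = 0.00331), and Cd36 at 34.8, 54.5 and 18.9 CPM and at 4.92, 2.44, 3.34 and 3.69 CPM, and it fell by 3.24 ± 0.37 (adjusted p = 0.00126). Neither gene overlapped between the ages, which held for 22.3% of all genes tested in AV cells. Scd2 was at 4.04, 3.30 and 3.02 CPM in young and 0.703, 0.917, 0.759 and 0.739 CPM in aged mice, from 18 and 22 UMIs in all, and it fell by 2.09 ± 0.43 (adjusted p = 0.0204). The Scd2 call was lost without Young A, Young C or Aged C (adjusted p = 0.108, 0.0831 and 0.0515).

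Elsewhere in the AV pathway lists, Angptl4 rose by 2.35 ± 0.43 (adjusted p = 0.0117), Ucp2, a mitochondrial carrier, by 1.20 ± 0.26 (adjusted p = 0.0258) and Pnpla2, the first lipase of droplet breakdown, by 1.19 ± 0.27 (adjusted p = 0.0289). Oxidation and pyruvate dehydrogenase genes other than Pdk4 were higher for 2 of 28 and lower for 0, with a median of 0.31 beside 0.02 over all genes. Droplet genes other than Plin2 were higher for 1 of 26 and lower for 0, and uptake genes outside the 10 higher for 1 and lower for 2 of 11. Among all genes tested in AV cells 2.90% were called higher and 3.26% lower.

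Plin2 thus changed in opposite directions in AV and endothelial cells, and this difference was tested directly with the mouse as a block. The change in endothelial cells minus that in AV cells was -3.57 ± 0.23 for Plin2 (adjusted p = 8.89e-07), -2.89 ± 0.53 for Pdk4 (adjusted p = 0.00338) and -2.48 ± 0.60 for Lpl (adjusted p = 0.0166). With Fabp4 at 1.73 ± 0.30 and Cd36 at 1.52 ± 0.29, 5 of 9 genes were called, where 10.3% of all genes were. Those of Fabp4 and Cd36, which say that the fall was smaller in endothelial cells, were lost among cells without 3 or more UMIs of another lineage (adjusted p = 0.231 and 0.248), while the Lpl call was lost without Young A, Young C or Aged C (adjusted p = 0.0665, 0.0577 and 0.0617) and the Pdk4 call without Young B (adjusted p = 0.0506).

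Against HS cells 3 of 9 genes differed, where 11.1% of all genes did: Plin2 by -1.72 ± 0.30 (adjusted p = 0.00101), Pparg by -1.72 ± 0.42 (adjusted p = 0.0105) and Fabp4 by 1.62 ± 0.36 (adjusted p = 0.00613). The Pparg call was lost without Aged D (adjusted p = 0.0673) and among cells without 3 or more UMIs of another lineage (adjusted p = 0.0707). Against myoepithelial cells 1 of 9 genes differed, Plin2 by -1.73 ± 0.26 (adjusted p = 5.77e-05), where 15.2% of all genes did. Against fibroblasts it was 4 of 9, where 5.62% of all genes were called, with Plin2 at -2.41 ± 0.28 (adjusted p = 1.38e-05) and Lpl at -2.87 ± 0.39 (adjusted p = 1.03e-04) lower in endothelial cells, and Fabp4 at 2.22 ± 0.27 (adjusted p = 2.36e-05) and Cd36 at 2.65 ± 0.71 (adjusted p = 0.0287) the other way. Among cells without 3 or more UMIs of another lineage the differences of Fabp4 shrank to 0.54 against HS cells and 0.17 against fibroblasts (adjusted p = 0.402 and 0.818), and that of Cd36 against fibroblasts to 0.41 (adjusted p = 0.917). The Cd36 call against fibroblasts was also lost without Aged A, Aged B or Aged C (adjusted p = 0.0818, 0.0742 and 0.0698) and by DESeq2 (adjusted p = 0.0896).

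Against pericytes 3 of 6 genes differed, where 9.60% of all genes did. The difference was -4.03 ± 0.38 for Lpl (adjusted p = 1.10e-07), -1.70 ± 0.40 for Pparg (adjusted p = 0.00605) and -1.55 ± 0.33 for Plin2 (adjusted p = 0.00284). Plin2 was called in all 5 of these comparisons, and in each its change was lower in endothelial cells. None of the 5 was refitted without cells holding an adipocyte marker UMI. Endothelial cells held more adipocyte marker RNA in young than in aged mice, and its part in these differences was not tested.

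**Figure D4:**
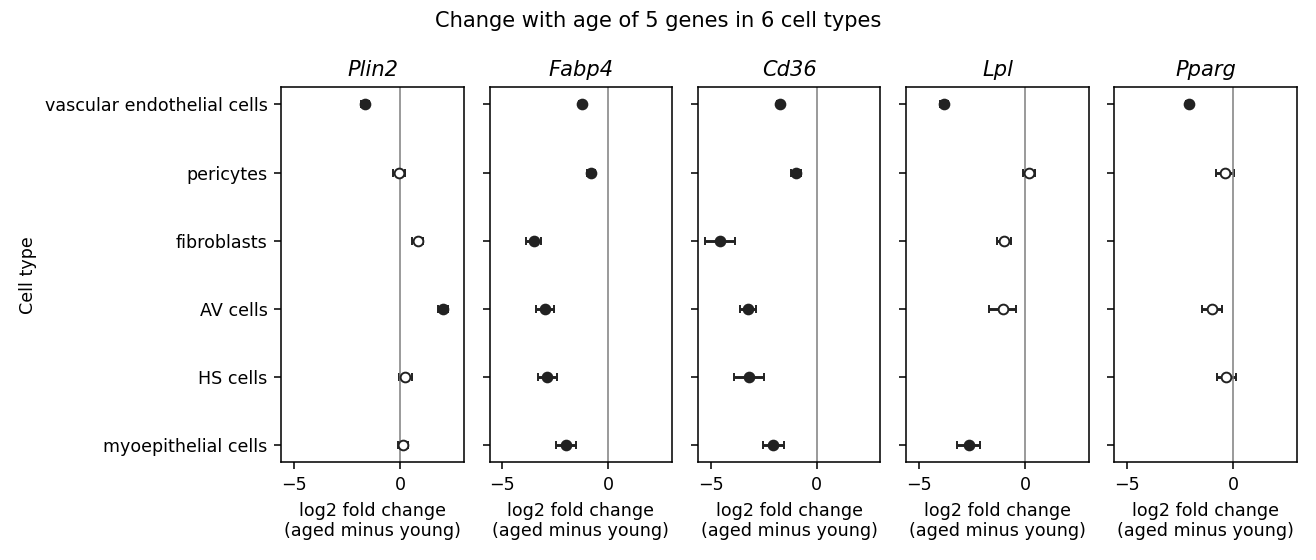
Log2 fold change with age (aged minus young) of Plin2, Fabp4, Cd36, Lpl and Pparg in 6 cell types, points with SE bars, filled where called and open where not, with no point where the gene did not pass the filter. The SE was worked back from the F statistic of the test. Plin2 is left of 0 in endothelial cells at -1.66 and right of 0 in AV cells at 2.01, while Fabp4 and Cd36 are left of 0 in all 6 types.

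Fabp4 was called lower in 7 of the 8 types tested for age and Cd36 in 6. In fibroblasts both were called, 2 of 7 genes tested, where 1.11% of genes were called lower and 2.07% higher. Fabp4 was at 1841, 1143 and 942 CPM in young and 142, 84.8, 38.6 and 162 CPM in aged fibroblasts, and it fell by 3.53 ± 0.35 (adjusted p = 7.62e-05), and Cd36 at 170.3, 114 and 51.0 CPM and at 5.76, 0, 0 and 10.1 CPM, and it fell by 4.57 ± 0.71 (adjusted p = 0.00340). In fibroblasts the ages did not overlap for either gene, which held for 15.9% of all genes tested there. Lpl, which was highest in these cells, was at 547, 539.7 and 828 CPM in young and 234, 424, 489 and 162 CPM in aged mice. Its groups did not overlap, but the difference between means of 638 ± 165 and 327 ± 155 CPM (SD, n = 3 and 4) was not called by edgeR (adjusted p = 0.107), nor was the log2 fold change of Plin2 at 0.83 ± 0.25 (adjusted p = 0.0938).

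HS cells also had 2 of 7 genes called lower, where 2.33% of genes were lower and 3.93% higher. Fabp4 was at 264, 294 and 92.0 CPM in young and 33.4, 15.7, 16.6 and 54.4 CPM in aged HS cells, and it fell by 2.89 ± 0.45 (adjusted p = 0.00631). Cd36 was at 39.4, 33.8 and 9.17 CPM and at 6.07, 1.09, 0 and 3.98 CPM, and it fell by 3.20 ± 0.70 (adjusted p = 0.0246), with Young C the lowest young mouse for both. The Cd36 call in HS cells was lost without Young A, Young B, Aged B, Aged C or Aged D (adjusted p from 0.0542 to 0.0736).

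Myoepithelial cells had 4 of 8 genes called lower, where 14.8% of genes were lower and 12.8% higher. Lpl was at 11.4, 22.9 and 16.1 CPM in young and 2.70, 1.46, 4.80 and 1.96 CPM in aged mice, and it fell by 2.66 ± 0.53 (adjusted p = 0.00160). Scd2 fell by 2.53 ± 0.65 (adjusted p = 0.00826), Cd36 by 2.04 ± 0.50 (adjusted p = 0.00638) and Fabp4 by 2.02 ± 0.47 (adjusted p = 0.00448). These were small counts: Lpl rested on 22 UMIs in young and 13 in aged mice and Scd2 on 21 and 13, and neither passed the filter without Aged A, Aged B or Aged D, nor Scd2 without Young A. The Cd36 call was lost without Young A (adjusted p = 0.0576) and the Fabp4 call by DESeq2 (adjusted p = 0.0612). Acsl4, which was highest in these cells, was at 43.7, 41.3 and 12.9 CPM in young and 104, 68.5, 11.2 and 71.9 CPM in aged mice, and was not called (0.92 ± 0.48, adjusted p = 0.164).

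Pericytes had 2 of 6 genes called lower, where 4.61% of genes were lower and 7.19% higher. Fabp4 was at 12404, 14442 and 14692 CPM in young and 5878, 7128, 10810.1 and 7402 CPM in aged mice, and it fell by 0.83 ± 0.20 (adjusted p = 0.0167), and Cd36 at 1303, 1609 and 1762 CPM and at 496, 768, 1131 and 765 CPM, and it fell by 0.97 ± 0.24 (adjusted p = 0.0180). Aged C was the highest of the aged mice for both and still below every young mouse. The ages did not overlap for 24% of all genes tested in pericytes. Both calls were lost without Young B or Young C (adjusted p from 0.0681 to 0.0802). As given above, these cells carried endothelial markers at a higher level in young mice.

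Among the small immune groups, Mb macrophages had 0 of 4 genes called by edgeR, where 0.233% of genes were lower and 0.931% higher. Fabp4 and Fabp5 had unadjusted p under 0.05 (0.00812 and 0.00798), and DESeq2 called 1 gene. Fabp5 was at 51.9, 0 and 118 CPM in young and 895, 45.6, 883 and 234 CPM in aged Mb macrophages, from 3 to 90 cells per mouse (adjusted p = 0.128). In T and B cells the only gene tested was called lower, Fabp4, where 0.438% of genes were lower and 0.219% higher. It was at 8263, 7349 and 501 CPM in young and 119.8, 50.9, 0 and 170.3 CPM in aged mice (adjusted p = 0.0253), from 4 to 19 cells per mouse, and the call was lost without any of Young A, Young B, Aged A, Aged B or Aged C (adjusted p from 0.0647 to 0.164). The endothelial markers in these cells summed to 21.5 to 948 CPM in young and 0 to 113 CPM in aged mice, and their part in the result was not tested.

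Endothelial markers were also read in the types outside the vessels. They summed to 207 to 498 CPM in young and 63.3 to 128 CPM in aged fibroblasts, to 71.9 to 163 and 39.6 to 59.4 CPM in AV cells, to 84.4 to 123 and 23.4 to 123 CPM in myoepithelial cells, and to 61.1 to 105 and 60.3 to 108 CPM in HS cells. The ages did not overlap in fibroblasts and AV cells, overlapped in myoepithelial cells, and had nearly the same range in HS cells. Fabp4 and Cd36 were called lower in each of these types. For each endothelial marker UMI the young libraries held 4.25 Fabp4 UMIs in endothelial cells, 3.99 in fibroblasts, 2.51 in myoepithelial, 2.50 in AV and 2.26 in HS cells. In aged libraries the same ratio was 1.87 in endothelial cells, 1.47 in fibroblasts, 1.38 in myoepithelial, 0.681 in AV and 0.335 in HS cells.

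Cd36 stood at 0.390 UMIs per marker UMI in young endothelial cells and between 0.267 and 0.307 in the same 4 other types. The ratios of Fabp4 and of Cd36 were thus lower in aged than in young libraries in endothelial cells and in these 4 types alike. Without the cells that held 3 or more UMIs of another lineage the log2 fold change of Fabp4 was -1.40 in fibroblasts (adjusted p = 0.0324), -1.98 in HS cells (adjusted p = 0.0377), -1.82 in myoepithelial cells (adjusted p = 0.00756) and -2.26 in AV cells, where it was no longer called (adjusted p = 0.0506). That of Cd36 was -2.57 in AV cells (adjusted p = 0.0153) and -2.63 in HS cells, where it was no longer called (adjusted p = 0.105), and Cd36 did not pass the filter in fibroblasts and myoepithelial cells. The part of endothelial RNA in these falls was not tested.

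**Figure D5:**
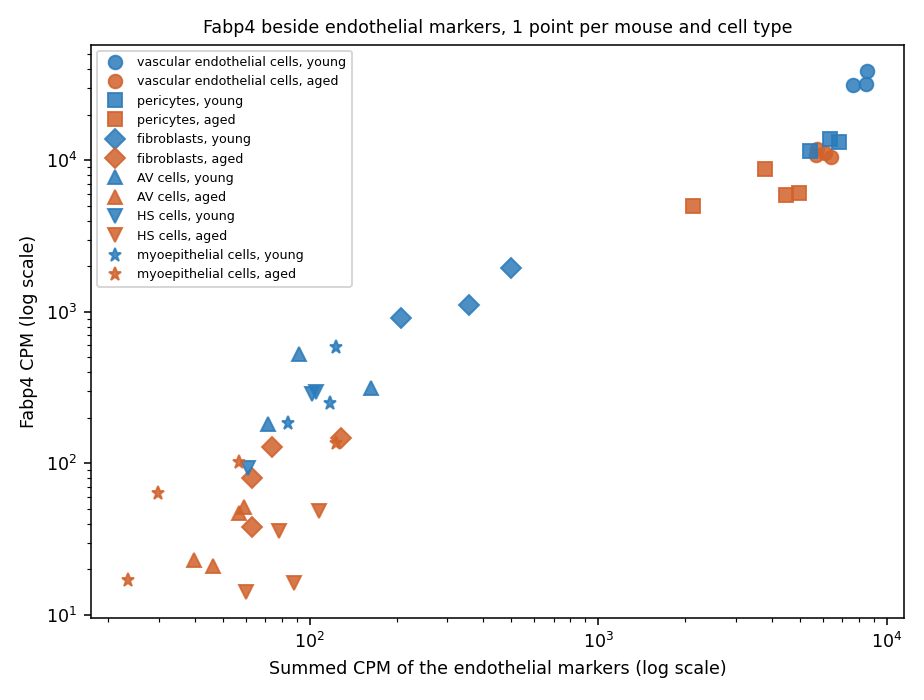
Fabp4 CPM against the summed CPM of 12 endothelial markers, both on log axes and without TMM scaling, 1 point per mouse in each of 6 cell types (symbol) and age (colour). Endothelial cells and pericytes lie at the upper right, young fibroblasts between them and the epithelial types, and in each type the aged mice average less Fabp4 than the young mice.

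Of all genes on the pathway lists, 5 were called in 3 or more types, Fabp4, Cd36, Gpihbp1 and Mgll lower and Pnpla2 higher. Pnpla2 rose in myoepithelial cells by 1.05 ± 0.27 (adjusted p = 0.00893), in AV cells and in pericytes by 1.01 ± 0.30 (adjusted p = 0.0414). Gpihbp1 was called lower in 5 types, with young and aged means of 2282 and 256 CPM in vascular endothelial cells. The means were 86.7 and 0.480 CPM in fibroblasts and 43.6 and 4.18 CPM in myoepithelial cells. They were 21.7 and 1.19 CPM in AV cells and 18.5 and 1.46 CPM in HS cells. The part of endothelial RNA in the falls of Gpihbp1 outside endothelial cells was not tested. Mgll was called lower in 4 types, by 1.74 ± 0.42 in fibroblasts (adjusted p = 0.0410), 1.31 ± 0.33 in myoepithelial cells (adjusted p = 0.00691) and 0.88 ± 0.22 in pericytes (adjusted p = 0.0190).

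In myoepithelial cells the synthesis genes Fads3 and Me1 rose by 3.26 ± 0.46 (adjusted p = 1.16e-04) and 2.00 ± 0.33 (adjusted p = 3.87e-04), while Elovl4, an elongase, fell by 1.88 ± 0.37 (adjusted p = 0.00133) and Rxra, the partner receptor of Pparg, by 2.72 ± 0.55 (adjusted p = 0.00165). Oxidation genes other than Pdk4 were lower for 9 and higher for 0 of 25 in myoepithelial cells, with a median of -0.73 beside 0.01 over all genes. Among all genes tested in myoepithelial cells 14.8% were called lower and 12.8% higher. In HS cells the triglyceride synthesis genes Agpat4 and Lpin1 rose by 2.65 ± 0.33 (adjusted p = 0.00190) and 1.55 ± 0.30 (adjusted p = 0.0162), and Me1 by 0.88 ± 0.22 (adjusted p = 0.0431), while Pdhb, a subunit of pyruvate dehydrogenase, fell by 0.76 ± 0.18 (adjusted p = 0.0322). Of the 10 genes, Pdk4 (1.72 ± 0.56, adjusted p = 0.0897), Plin2 (0.24 ± 0.31, adjusted p = 0.702), Scd2, Acsl4 and Pparg were not called in HS cells. Pdk4 was at 1.93 to 3.16 CPM in young and 1.38 to 18.6 CPM in aged HS cells, so that the ages overlapped. Its change thus had the same direction as in AV cells, and the difference between AV and HS cells was not tested.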

How the data were processed

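Single cells from abdominal mammary glands of 3 young and 4 aged mice were sequenced as 1 droplet 3′ library per mouse. Per the submitters' processing notes, the authors used Cell Ranger 2.0 and the mm10 genome, and deposited 1 table of raw UMI counts per gene and cell with a cell type for each cell, drawn from their clusters. The authors filtered cells against likely doublets and estimated the rest with Scrublet and DoubletFinder, and no doublet caller was run here. For each type and mouse with at least 3 cells the counts were added up and tested in 8 types with edgeR 4.0.16 (R 4.3.3), using its filter on low counts, TMM factors and the quasi-likelihood test, with Benjamini-Hochberg adjustment over all genes. The change in endothelial cells was set against that in 5 other types in fits with the mouse as a block. Alternatives used DESeq2 1.42.0, other scalings, no filter, a replicate block, thinned totals, fewer cells and left-out mice. The fits were tested on simulated data: 4-fold changes were recovered at 82% to 100% over the types and 2-fold changes at 15% to 69%. These changes were planted in genes with more than 10 expected UMIs in the smallest library, with the same dispersion for all genes. The rates therefore do not cover genes with lower counts, such as Scd2 in AV cells. Libraries of 6652599 to 16999625 UMIs set the precision of levels. The 10 genes, marker lists and pathway lists were chosen with earlier results of these data known. Pathway genes were named where they were among the largest called changes of a type or called in several types.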

Additional observations from a re-analysis of the deposited data

Results flagged for a closer look

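The change with age of the 10 genes differed between vascular endothelial cells and another type in 16 cases, each by a test of the difference itself, given here on the log2 scale as the endothelial change minus the other. Plin2 differed from all 5 types, by -3.57 against AV cells, -1.72 against HS cells, -1.73 against myoepithelial cells, -2.41 against fibroblasts and -1.55 against pericytes. Lpl differed by -2.48 against AV cells, -2.87 against fibroblasts and -4.03 against pericytes, and Pparg by -1.72 against HS cells and -1.70 against pericytes. Pdk4 differed by -2.89 against AV cells. Fabp4 differed by 1.73 against AV cells, 1.62 against HS cells and 2.22 against fibroblasts, and Cd36 by 1.52 against AV cells and 2.65 against fibroblasts. These 5 differences, and that of Pparg against HS cells, were not called among cells without 3 or more UMIs of another lineage. Those against pericytes could not be fitted in this check. Calls of Lpl and Pdk4 against AV cells, Pparg against HS cells and Cd36 against fibroblasts were also lost without single mice, as given above. No difference was refitted without cells holding an adipocyte marker UMI.

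Plin2 in HS cells stood apart in Aged D, at 63.7 CPM against 24.3 to 24.9 CPM in the other aged mice. Of 51 sets of 4 aged mice checked this was the 1 with a mouse apart, where chance gives about 1 in 20.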

How the results depend on the processing

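Of 22 calls with age, all 22 held with RLE factors, library totals alone and no filter, and 21 each with DESeq2, the replicate block and without ribosomal protein and mitochondrial genes. The 6 endothelial calls held in every alternative that was run. Thinned to equal totals, 15 of 15 calls that could be fitted held. Among cells without 3 or more UMIs of another lineage 12 of 14 held. Of the pericytes 2.29% were such cells, and they could not be fitted. With at least 10 cells per mouse 21 of 21 held, and Mb macrophages and T and B cells could not be fitted. The share of called genes that were higher fell with library totals alone from 46.4% to 36.2% in myoepithelial cells, 62.8% to 39.2% in HS cells, 65.1% to 49.5% in fibroblasts, 60.9% to 34.3% in pericytes and 80% to 62.5% in Mb macrophages. Causes of the changes below were not tested.

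The number of the 10 genes called became 2 in myoepithelial cells, 1 in HS cells, 1 in fibroblasts and 0 in T and B cells when thinned. Without cells of mixed lineage it was 3 in AV cells, 1 each in HS cells, fibroblasts and myoepithelial cells and 0 in T and B cells, and the differences from endothelial cells numbered 3 against AV cells, 1 against HS cells and 3 against myoepithelial cells. Without cells holding an adipocyte marker UMI it was 2 in myoepithelial cells. Without the filter it was 5 in HS cells and 2 each in T and B cells and Mb macrophages, with DESeq2 1 in Mb macrophages, and without ribosomal protein and mitochondrial genes 0 in T and B cells (Fabp4 adjusted p = 0.0611).

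Leaving out each mouse in turn gave 6 calls each time in endothelial cells, 4 to 5 in AV cells, 2 to 5 in myoepithelial cells, 2 to 3 in fibroblasts, 1 to 2 in HS cells, 0 to 2 in pericytes, 0 to 1 in T and B cells and 0 in Mb macrophages, and 4 to 6, 2 to 4, 1 to 3, 3 to 5 and 3 to 4 differences against AV, HS, myoepithelial cells, fibroblasts and pericytes.

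The label letters shared by young and aged mice name different animals, and deviations of mice with the same letter correlated from -0.188 to 0.320 over the types. With the replicate block 6 genes were called in endothelial cells, 4 in AV cells (Scd2 lost, adjusted p = 0.0954) and 4 in myoepithelial cells, 2 each in fibroblasts, HS cells, Mb macrophages and pericytes, and 1 in T and B cells, and changes that were not called turned in sign for Plin2 (-0.19) and Scd2 (0.05) in HS cells, Fabp5 in AV cells (0.09) and Plin2 in pericytes (0.03).

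Other changes that turned in sign, none of them called in the reported fit, were Plin2 in myoepithelial cells (-0.33), Acsl4 in HS cells (-0.04) and Lpl in pericytes (-0.20) when thinned, Lpl in AV cells (0.28) and Mb macrophages (-6.28) without cells of mixed lineage, and Acsl4 in endothelial cells (-0.02) and Lpl in pericytes (-0.0019) with library totals alone. With a mouse left out, Pdk4 in myoepithelial cells ran from -1.48 to 0.68, Plin2 in HS cells from -0.20 to 0.38, Scd2 in HS cells from -0.48 to 0.33, Pparg in HS cells from -0.69 to 0.08, Fabp5 in AV cells from -0.50 to 0.37, Acsl4 in fibroblasts from -0.37 to 0.89, Plin2 in pericytes from -0.23 to 0.06, Lpl in pericytes from -0.08 to 0.41 and Lpl in Mb macrophages from -0.03 to 1.57.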

Other observations

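Over the 13 cell types, and on the scale log2(mean CPM + 1), the genes whose levels were most like those of Fabp4 among 11615 genes that reached a mean of 10 CPM in a type were Rbp7 (Pearson's r = 0.973), Esam (0.955) and Gpihbp1 (0.949). Rbp7 was also the gene most like Cd36 (0.917), for which Fabp4 was the fifth (0.904). The gene most like Pdk4 was Zfos1 (0.894), followed by Lalba (0.884), the regulator of lactose synthesis, with Btn1a1 (0.875), a protein of the milk fat globule, also among its 5 nearest. Plin2 was most like Lipa (0.927), the lysosomal acid lipase, and Pparg was most like Nuak1 (0.880) and Eng (0.875). The nearest gene was B4galt5 for Lpl (0.921), Cnih1 for Scd2 (0.912), Prcp for Fabp5 (0.869) and Pmepa1 for Acsl4 (0.765). Fabp3 was too low to be compared. The means pool both ages, and Pdk4 in AV cells was at 13.7 CPM in young and 185 CPM in aged mice. Likeness within 1 age was not read. These are descriptions over 13 points that share libraries, depth and the clustering that made the types.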
